A study of Mus musculus with 8 samples.

Results

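Matrix metalloproteinases (MMPs) and tissue inhibitors of metalloproteinases (TIMPs) were followed across the cells of 8 mouse livers. The 10 genes were Mmp2, Mmp8, Mmp9, Mmp12, Mmp13, Mmp14, Mmp19, Timp1, Timp2 and Timp3. They were taken by symbol from the gene table of the deposited count matrices, which lists 55450 genes, and all 10 were found there.

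The study profiled single liver cells of C57BL/6 wild-type mice by droplet 3′ RNA sequencing to compare mice with nonalcoholic steatohepatitis (NASH) and fibrosis with healthy mice. There were 3 groups of mice, with 1 library per liver. The control group (2 mice) had a normal diet and drinking water, the HFD+F+CCl4 group (3 mice) a high-fat diet, a fructose solution and intraperitoneal carbon tetrachloride, and the WD+F+CCl4 group (3 mice) a western diet with the same fructose solution and carbon tetrachloride. Both model groups had the diet, the sugar and the liver toxin together, so their parts cannot be told apart. Livers were perfused through the heart and dissociated with collagenase IV, papain and DNase I, red cells were lysed and dead cells removed, and no cell type was sorted. Because each mouse was 1 library, p-values measure the spread between mice, library preparation included.

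MMPs are zinc-dependent endopeptidases that cut collagens, elastin, proteoglycans and many cell surface proteins. Most are secreted as inactive precursors and are activated when the propeptide is cut away, and TIMPs block the active site by binding tightly to it. In the fibrotic liver, stellate cells and myofibroblasts are known as the main makers of TIMP1, macrophages as a source of the collagenase MMP13 and the elastase MMP12, and neutrophils store MMP8 and MMP9 in granules.

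After barcodes with more than 500 detected genes and under 25% mitochondrial UMIs (unique molecular identifiers, 1 per captured RNA molecule) were kept, 80474 cells remained, 4168 to 11999 per mouse, with 5305581 to 63878061 UMIs per mouse. Control replicate 2 stood apart. It held the 5305581 UMIs, and its median cell had 992.5 UMIs, against 2397 to 4278 in the other mice. HFD+F+CCl4 replicate 1 held 2673 of 3220, 2188 of 2569 and 441 of 480 cells of 3 clusters led by heat shock and immediate early genes. Of 3 clusters led by hepatocyte genes, 1 had 2026 of its 2044 cells from control replicate 2. The others had 1500 of 1520 and 328 of 367 cells from control replicate 1. These 3 clusters were left unnamed and entered only the sums over all kept cells. Unnamed cells of all kinds were 26.0% and 52.6% of the kept cells of control replicates 1 and 2, against 2.58% to 17.4% in the model mice. Of the barcode sequences, 732 occurred in more than 1 library, 8 to 46 for each pair of libraries. Of the marker genes used to name 18 cell classes, none was at 0 in its class, but only 3 of 8 macrophage markers and 3 of 6 type 2 dendritic cell markers were highest in the class they mark.

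The 10 genes lie on 7 chromosomes of mouse genome build GRCm38. Mmp13 (chr9:7272514-7283331), Mmp12 (chr9:7344381-7369499) and Mmp8 (chr9:7558456-7568485) all lie on the plus strand of chromosome 9. The other genes are Mmp2 (chr8:92827291-92853420), Mmp9 (chr2:164940780-164955850), Mmp14 (chr14:54431612-54445364), Mmp19 (chr10:128790910-128800824), Timp1 (chrX:20870166-20874735), Timp3 (chr10:86300372-86349506), all on the plus strand, and Timp2 on the minus strand (chr11:118301069-118355740). For 7 of the 10 genes RefSeq's GRCm38.p6 table held the 250 bases before a transcription start, 8 windows in all, and Mmp2, Mmp9 and Mmp19 had none. The AP-1 motif TGANTCA, which reads the same on both strands, was searched because AP-1 is a known regulator of MMP promoters. It was found in 2 of the 8 windows and in 2217 of all 32851 such windows of the table (6.75%). Both sequences with a match are shown because Mmp13 and Mmp12, both on chromosome 9, also both had their highest mean level in Kupffer cell-like cells (described below). The capitals mark the motif in the windows before the start of Mmp13 (chr9:7272264-7272513, plus strand, motif 35 to 29 bases before the start) and before the second listed start of Mmp12 (chr9:7347124-7347373, plus strand, motif 44 to 38 bases before the start).
Mmp13: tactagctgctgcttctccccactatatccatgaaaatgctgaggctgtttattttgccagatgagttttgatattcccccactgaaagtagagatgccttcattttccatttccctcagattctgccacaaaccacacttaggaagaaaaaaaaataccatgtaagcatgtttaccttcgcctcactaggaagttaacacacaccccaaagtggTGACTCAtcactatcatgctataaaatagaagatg
Mmp12: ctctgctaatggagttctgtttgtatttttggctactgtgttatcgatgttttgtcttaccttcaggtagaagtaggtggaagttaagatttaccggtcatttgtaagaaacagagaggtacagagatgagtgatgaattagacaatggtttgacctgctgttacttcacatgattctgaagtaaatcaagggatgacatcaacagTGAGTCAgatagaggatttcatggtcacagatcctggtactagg
The window before the first listed start of Mmp12 (chr9:7344147-7344396) held no match. A match says only that these letters are present.

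The first question was which liver cells expressed each gene. Levels in 18 classes are given as counts per 1000000 UMIs (CPM) of the cells of a class summed within a mouse, as mean ± SD over mice with at least 10 cells of the class. These levels are compared between classes for 1 gene and not between genes, since the reads of 3′ libraries and gene-specific capture set the scale of each gene. Mmp2, a gelatinase, was highest in stellate cell- or fibroblast-like cells (227 ± 128 CPM). Mmp9, the other gelatinase, and Mmp8, the neutrophil collagenase, were highest in neutrophil-like cells (1075 ± 410 and 445 ± 266 CPM). For all 3 genes the step down to the next class was larger than the spread between mice. In the models the stellate-like class held 63.4% of all Mmp2 UMIs, and the neutrophil-like class held 85.9% of Mmp9 UMIs and 47.3% of Mmp8 UMIs. These shares pool the mice. Of the stellate-like cells, 161 came from HFD+F+CCl4 replicate 1, against 3 to 39 from each other model mouse.

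Mmp12, the macrophage elastase, averaged 2019 ± 2160 CPM in Kupffer cell-like cells, the resident liver macrophages, and 134 ± 84.6 CPM in the other macrophage-like cells, and was higher in the Kupffer-like class in 5 of 5 mice (difference 3.19 ± 1.02 on the log2 scale, SD). The mean and the difference include 1 cell of HFD+F+CCl4 replicate 3 with 1241 Mmp12 UMIs. The level of that mouse without this cell is given below. Mmp13, a collagenase that cuts fibrillar collagen, had the same leading pair of classes, with 127 ± 211 CPM in Kupffer-like cells and higher values there than in macrophage-like cells in 5 of 5 mice (2.46 ± 1.61). The mean of 127 CPM rested on the same cell of HFD+F+CCl4 replicate 3. It was 33.6 ± 19.99 CPM without that mouse, and the log2 difference was 1.51 ± 0.88 without that cell, again higher in Kupffer-like cells in 5 of 5 mice. Mmp14, the membrane-anchored MMP that activates proMMP2 on the cell surface, had no single leading class. Its means in Kupffer-like (214 CPM), patrolling monocyte-like (199 CPM), stellate-like (193 CPM), macrophage-like (182 CPM) and endothelial cell-like (179 CPM) cells did not differ from neighbour to neighbour beyond the spread between mice. Control mice entered some of these means and not others, and over the model mice alone the order was patrolling monocyte-like (232 ± 53.8 CPM), stellate-like (227 ± 13.7), Kupffer-like (214 ± 78.3), endothelial-like (210.4 ± 46.7) and macrophage-like cells (182 ± 80.1). Mmp19 was low in all classes, and neighbours among its leading classes, from Kupffer-like (27.4 CPM) and stellate-like (24.4 CPM) cells down to macrophage-like cells, were not separated either. Over the model mice alone the stellate-like mean (30.5 CPM) was above the Kupffer-like one.

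Among the inhibitors, Timp1 led in stellate-like cells (1044 ± 1831 CPM), above endothelial-like cells in 4 of 5 mice, and 59.6% of its UMIs in the models came from the stellate-like class. Both values rested in large part on 1 cell of HFD+F+CCl4 replicate 3: the mean was 232 ± 276 CPM without that mouse, and the share was 41.2% without that cell. The means of Timp2 ran from stellate-like (700 ± 264 CPM) through cholangiocyte-like (308 CPM) and Kupffer-like (209 CPM) down to macrophage-like cells (172 CPM), and each step was in the same direction in 5 of 5 mice and larger than the spread. Timp3, the inhibitor that binds to extracellular matrix, was led by endothelial-like (660 ± 246 CPM) and stellate-like (642 ± 360 CPM) cells, which did not differ beyond their spread (633 and 637 CPM over the model mice alone), and both were above cholangiocyte-like cells (175 CPM). Endothelial-like cells held 74.4% of Timp3 UMIs in the models, macrophage-like cells 43.1% of Timp2 UMIs. The heat map of the 10 genes by class gives these patterns.

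**Figure D1:**
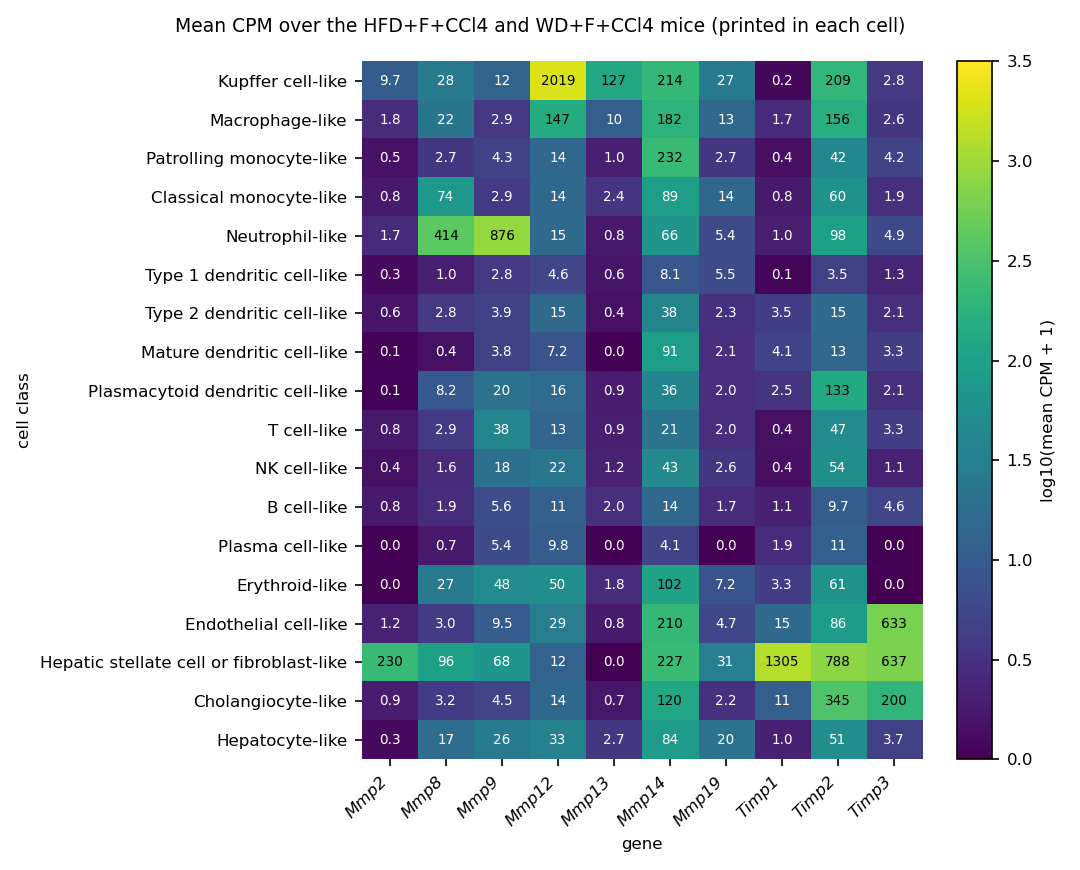
Mean CPM of the 10 genes (columns) in 18 marker-named cell classes (rows), over the mice of both models with at least 10 cells of the class, coloured by log10(mean CPM + 1). Mmp8 and Mmp9 are brightest (highest) in neutrophils, Mmp12 and Mmp13 in Kupffer cells, Mmp2 and Timp1 in stellate cells and Timp3 in endothelial and stellate cells, while Mmp14 and Timp2 are spread over many classes.

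The second question was how the genes differed between NASH livers and control livers over all kept cells. Mmp12, Mmp13, Mmp14, Timp1 and Timp2 were higher in both models than in the control mice, and Mmp8 was higher in the WD+F+CCl4 mice. No member was called lower. In a sum over all cells, more cells of a type and more RNA per cell cannot be told apart, and the models held far more macrophages and patrolling monocytes than the controls.

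Over the 10 genes, 5 were called in HFD+F+CCl4, where 18.9% of all genes tested were called (9.63% higher and 9.22% lower), and 6 in WD+F+CCl4, where 21.4% were called (11% higher and 10.3% lower). Model mice all above the controls were seen for 20.9% of all genes in HFD+F+CCl4 and 20.1% in WD+F+CCl4. The median log2 fold change of the 10 was 2.68 and 2.32, against -0.0095 and -0.056 over all genes. At an unadjusted p under 0.05, 7 members passed in each comparison, as did 34.5% and 35.9% of all genes. These 2 comparisons share the control mice. Values within a group are given in the order of the replicate numbers throughout.

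Mmp14 measured 11.3 and 17.7 CPM in the control mice, 191, 104 and 209 CPM in the HFD+F+CCl4 mice and 51.1, 125 and 133 CPM in the WD+F+CCl4 mice. The 6 model mice all lay above both controls, and the lowest of them was WD+F+CCl4 replicate 1. The log2 fold change was 3.69 ± 0.52 (SE) in HFD+F+CCl4 and 3.05 ± 0.50 in WD+F+CCl4 (adjusted p = 0.00425 and 0.00635, edgeR's quasi-likelihood test, Benjamini-Hochberg over 19787 genes). Both calls held in 11 of 11 other processing choices (another tool, scaling, filter on genes or barcodes, depth, doublets, cells or samples left out of the fit or a replicate block), and the WD+F+CCl4 call was lost without control replicate 1 (adjusted p = 0.0558).

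Mmp12 had the largest estimated change of the 10 genes in both comparisons. Its levels were 1.79 and 1.88 CPM in the controls, 102, 89.9 and 119 CPM in HFD+F+CCl4 and 7.198, 30.2 and 241 CPM in WD+F+CCl4. All model mice were above the controls, but WD+F+CCl4 replicates 1 and 3 stood at opposite ends of the models. The log2 fold changes were 5.92 ± 1.53 and 5.77 ± 1.52 (adjusted p = 0.0340 and 0.0334). Both calls lay close to the threshold of 0.05 and held in 10 and 9 of 11 other processing choices. The HFD+F+CCl4 call was lost without any of the 3 HFD+F+CCl4 mice (adjusted p = 0.0536, 0.0653 and 0.0648) or either control (0.168 without control replicate 1 and 0.154 without control replicate 2), and the WD+F+CCl4 call without HFD+F+CCl4 replicate 2 (0.0556) or either control (0.168 and 0.149).

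Mmp13 was nearly absent from the controls, at 0.223 and 0 CPM, and measured 2.03, 5.15 and 6.15 CPM in HFD+F+CCl4 and 2.81, 4.00 and 8.48 CPM in WD+F+CCl4. Again no model mouse overlapped a control. The 6.15 CPM of HFD+F+CCl4 replicate 3 was 3.38 CPM without 1 Kupffer-like cell. The log2 fold changes were 4.78 ± 0.98 and 4.98 ± 0.99 (adjusted p = 0.0156 and 0.0123). The HFD+F+CCl4 call was lost without control replicate 1 (0.0522) or replicate 2 (0.0623), and the WD+F+CCl4 call without control replicate 2 (0.0504), while they held in 9 and 11 of 11 other choices.

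Mmp8 measured 10.1 and 12.1 CPM in the controls, 24.8, 24.6 and 27.0 CPM in HFD+F+CCl4 and 116, 73.0 and 27.8 CPM in WD+F+CCl4. Every model mouse was above both controls, and the 3 WD+F+CCl4 mice ran from just above the HFD+F+CCl4 mice to far above them. Only the WD+F+CCl4 comparison passed the test (2.93 ± 0.58, adjusted p = 0.0123), and it was lost without control replicate 1 (0.0818) or replicate 2 (0.0740). In HFD+F+CCl4 the estimate was 1.33 ± 0.54 (adjusted p = 0.128).

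The gelatinases and Mmp19 did not pass. Mmp9 was 64.7 and 84.3 CPM in the controls, 29.96, 49.1 and 43.2 CPM in HFD+F+CCl4 and 159, 52.5 and 21.2 CPM in WD+F+CCl4 (adjusted p = 0.531 and 0.821). Mmp2 was at or under 1.95 CPM in every mouse except HFD+F+CCl4 replicate 1 (14.02 CPM), the mouse with the most stellate-like cells (161, against 1 to 39 in the others), and its adjusted p-values were 0.138 and 0.790. Mmp19 lay between 8.07 and 11.6 CPM in the models and at 2.21 and 9.05 CPM in the controls, so the groups overlapped (0.206 and 0.117).

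Timp1 measured 0.195 and 0 CPM in the controls, 7.69, 4.49 and 11.1 CPM in HFD+F+CCl4 and 0.689, 1.70 and 2.65 CPM in WD+F+CCl4. All model mice were above both controls. In HFD+F+CCl4 replicate 3, 469 of the UMIs came from 1 stellate-like cell, and the level was 2.40 CPM without it, inside the range of the WD+F+CCl4 mice. The log2 fold change was 5.72 ± 0.97 in HFD+F+CCl4 (adjusted p = 0.00825), a call that held without each of the 8 mice in turn and, at 4.97 (adjusted p = 0.0124), without the cell with the most UMIs of each member (9 cells, left out after the data were seen). In WD+F+CCl4 it was 3.56 ± 0.92 (adjusted p = 0.0310), and it was lost without WD+F+CCl4 replicate 2 (0.0744) or 3 (0.0539) and without control replicate 1 (0.0718) or 2 (0.0921), and held in 8 of 11 other choices.

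Timp2, which also takes part in proMMP2 activation by MMP14, was at 35.1 and 23.0 CPM in the controls, 166, 103 and 54.8 CPM in HFD+F+CCl4 and 89.2, 66.1 and 102 CPM in WD+F+CCl4. No model mouse overlapped the controls. The log2 fold changes of 1.92 ± 0.43 and 1.71 ± 0.43 passed (adjusted p = 0.0212 and 0.0284). The first was lost without HFD+F+CCl4 replicate 2 (0.0524) or control replicate 2 (0.107), and the second without control replicate 1 (0.0546) or 2 (0.130), WD+F+CCl4 replicate 1 (0.0638) or 2 (0.0504) or HFD+F+CCl4 replicate 2 (0.0502). Timp3 spanned 0.497 to 169 CPM over the model mice around the controls at 49.8 and 38.3 CPM and gave no call (adjusted p = 0.874 and 0.858), and the mice with many endothelial-like cells were the high ones: HFD+F+CCl4 replicate 1 (1482 such cells, 169 CPM) and WD+F+CCl4 replicate 3 (1426 cells, 75.8 CPM).

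WD+F+CCl4 was then set against HFD+F+CCl4, which differed in the diet. No member was called by edgeR or by DESeq2 (0%: no gene of the 19787 was called by edgeR). The adjusted p of all 10 (Mmp2, Mmp8, Mmp9, Mmp12, Mmp13, Mmp14, Mmp19, Timp1, Timp2 and Timp3) was 0.9998. Their log2 differences, WD+F+CCl4 minus HFD+F+CCl4, ran from -2.84 ± 1.15 for Mmp2 to 1.60 ± 0.46 for Mmp8. At an unadjusted p under 0.05 there were 3 members, Mmp2, Mmp8 and Timp1 (-2.17 ± 0.63), where 3.88% of all genes had such a p. Among them only Mmp8 (higher in WD+F+CCl4) and Timp1 (lower) had groups without overlap, as had 2.65% and 5.9% of all genes in those directions. For Timp1 the separation rested on 1 cell of HFD+F+CCl4 replicate 3, without which the groups overlapped, and the difference was -1.41 without the cell with the most UMIs of each member.

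**Figure D2:**
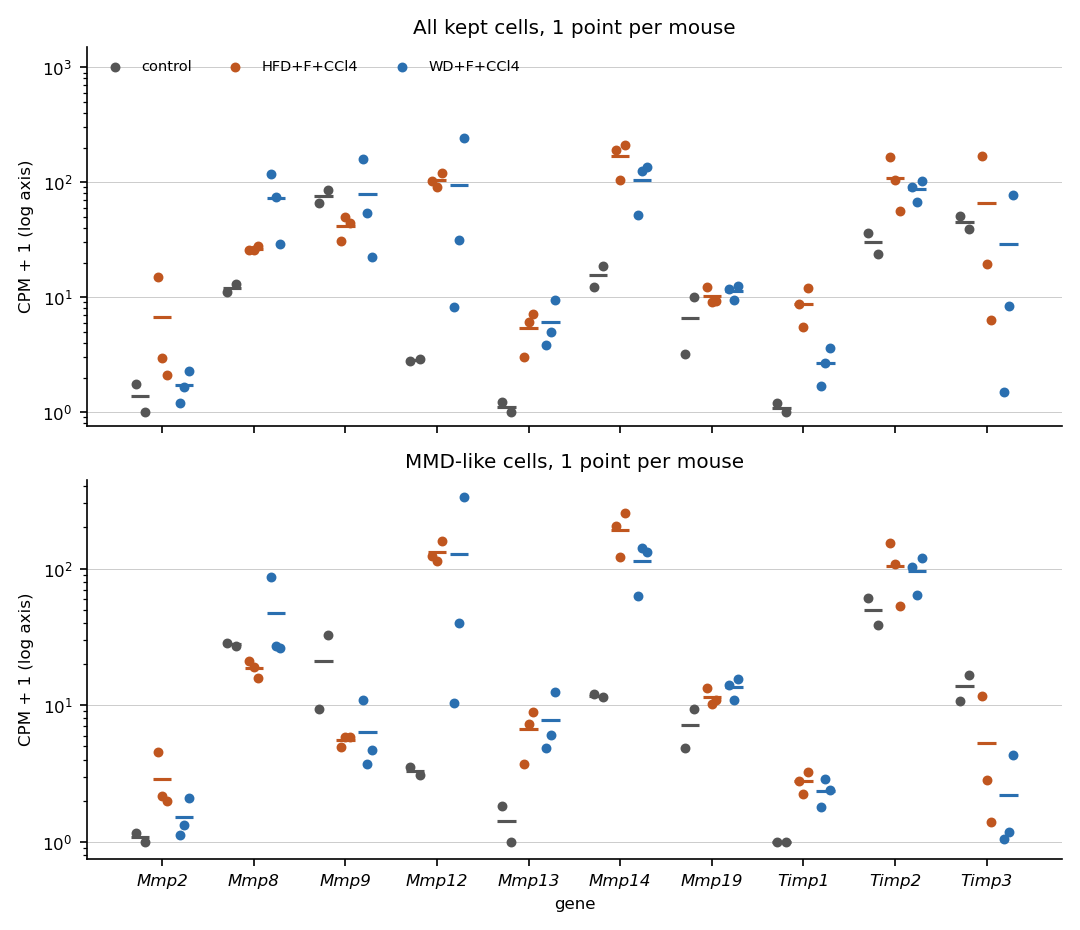
CPM + 1 (log axis) of the 10 genes in each of the 8 mice, over all kept cells and over MMD-like cells (the monocyte, macrophage and dendritic cell classes), with 1 point per mouse coloured by group and a bar at the group mean. Mmp12, Mmp13, Mmp14 and Timp1 lie above the controls in all model mice in both panels, and the model mice lie on both sides of the controls for Timp3 over all cells.

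The study centred on the monocyte-macrophage-dendritic cell (MMD) system, so the members were next compared within the MMD-like cells, the sum of the 8 monocyte, macrophage and dendritic cell classes and of unnamed clusters whose 3 leading marker lists tied. Mmp12, Mmp14, Mmp19 and Timp1 were called higher in HFD+F+CCl4 and, with Mmp13 added, the same 4 in WD+F+CCl4. With 16.3% and 21.1% of all genes called (8.54% and 11% higher, 7.8% and 10.1% lower), the members' counts were 4 and 5 of 10, and their median log2 fold changes were 2.16 and 1.72, against 0.084 and 0.070 over all genes. At an unadjusted p under 0.05 there were 8 and 7 members and 32% and 35.1% of all genes, and models above the controls without overlap were seen for 22.1% and 23.8% of all genes. The mix within MMD-like cells differed between groups: the 1125 and 693 control cells were 42.8% and 27.8% classical monocyte-like, 36.1% and 39.7% plasmacytoid dendritic cell-like and 1.16% and 0.577% macrophage-like, whereas the 6516 to 7735 cells of each model mouse were 14.5% to 41.5% macrophage-like and 18.1% to 40.5% patrolling monocyte-like. The part of this mix in the differences below was not tested in the sum, and values within classes follow.

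Mmp14 in MMD-like cells was 11.1 and 10.5 CPM in the controls, 202, 119 and 254 CPM in HFD+F+CCl4 and 62.4, 141 and 132 CPM in WD+F+CCl4. All 6 model mice lay far above both controls. Its log2 fold changes of 4.27 ± 0.52 and 3.53 ± 0.51 (adjusted p = 0.00171 and 0.00254 over 17402 genes) were the only ones of the members in MMD-like cells that stayed called in all of 13 other processing choices and without each of the 8 mice.

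Mmp12 was 2.52 and 2.09 CPM in the controls, 122, 113 and 157 CPM in HFD+F+CCl4 and 9.30, 38.6 and 330 CPM in WD+F+CCl4, with no overlap between models and controls (5.86 ± 1.72 and 5.83 ± 1.72, adjusted p = 0.0498 and 0.0426). These calls were at the edge and held in 7 and 8 of 13 other processing choices. In HFD+F+CCl4 the call was lost without any of the 3 HFD+F+CCl4 mice (0.0759, 0.0765 and 0.0761), without WD+F+CCl4 replicate 2 (0.0524), and without control replicate 1 (0.282) or 2 (0.186). In WD+F+CCl4 it was lost without any of the HFD+F+CCl4 mice (0.0578, 0.0601 and 0.0503) or without control replicate 1 (0.266) or 2 (0.161).

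Mmp13 was 0.840 and 0 CPM in the controls, 2.71, 6.34 and 7.88 CPM in HFD+F+CCl4 and 3.88, 5.00 and 11.5 CPM in WD+F+CCl4. The models lay above the controls, and the WD+F+CCl4 difference passed (3.45 ± 0.95, adjusted p = 0.0340) while the HFD+F+CCl4 difference did not (3.17 ± 0.96, adjusted p = 0.0554). The WD+F+CCl4 call was lost without WD+F+CCl4 replicate 2 (0.0512) or 3 (0.0570) and without control replicate 1 (0.177) or 2 (0.118), and held in 10 of 12 other choices.

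Mmp19, a secreted MMP that cuts basement membrane proteins, was 3.86 and 8.37 CPM in the controls, 12.5, 9.17 and 9.94 CPM in HFD+F+CCl4 and 13.1, 9.83 and 14.6 CPM in WD+F+CCl4. The lowest model mouse lay just above control replicate 2. The differences were 1.16 ± 0.33 and 1.46 ± 0.33 (adjusted p = 0.0436 and 0.0154). The first was lost in 7 of the 8 fits without a mouse: 0.0826, 0.0662 and 0.0731 without HFD+F+CCl4 replicates 1, 2 and 3, 0.0680, 0.0531 and 0.0580 without WD+F+CCl4 replicates 1, 2 and 3, and 0.492 without control replicate 1, with the estimate then at 0.58. The second was lost without control replicate 1 (0.89, adjusted p = 0.202), and they held in 7 and 11 of 13 other choices, with an estimate of 0.09 in HFD+F+CCl4 when counts were thinned to the smallest library.

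Timp1 was at 0 in both controls, 1.78, 1.26 and 2.27 CPM in HFD+F+CCl4 and 0.810, 1.90 and 1.38 CPM in WD+F+CCl4. The means were 1.77 CPM in HFD+F+CCl4 and 1.36 CPM in WD+F+CCl4. Outside the MMD-like cells they were 1.59 and 0.530 CPM in B cell-like and 1.02 and 0.894 CPM in neutrophil-like cells. The part of free RNA in the MMD-like values was not tested. The Timp1 means in MMD-like cells were 4.07 (HFD+F+CCl4) and 3.14 (WD+F+CCl4) times the limit of 3 UMIs over the controls. These folds leave out the spread between mice. Both differences were called (adjusted p = 0.0175 and 0.0189). Both calls were lost without control replicate 1 (0.205 and 0.257), which left only the shallow control, and held in 11 of 12 other choices each.

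The remaining 5 members gave no call in MMD-like cells. Timp2 was 59.8 and 37.6 CPM in the controls and 51.8 to 152 CPM in the models (1.14 ± 0.44 and 1.08 ± 0.44, adjusted p = 0.114 and 0.117). The estimates of Mmp2, Mmp8, Mmp9 and Timp3 were 3.76, -0.49, -1.77 and -1.41 in HFD+F+CCl4 (adjusted p = 0.146, 0.578, 0.0973 and 0.578) and 1.97, 0.95, -1.48 and -3.14 in WD+F+CCl4 (adjusted p = 0.467, 0.245, 0.137 and 0.192). Without the clusters led by heat shock and immediate early genes, a choice made after the data were seen, the calls were the same 4 and 5 genes.

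Between the models, no member was called in MMD-like cells by edgeR or DESeq2 (0%). The lowest adjusted p was that of Mmp8 (0.589, 1.44 ± 0.44), whose WD+F+CCl4 mice all lay above the HFD+F+CCl4 mice, as for 4.6% of all genes. Mmp2 also had an unadjusted p under 0.05 (-1.79 ± 0.76), as had 6.61% of all genes. For Mmp9, Mmp12, Mmp13, Mmp14, Mmp19, Timp1, Timp2 and Timp3 the differences lay between -1.74 (Timp3) and 0.30 (Mmp19), with adjusted p from 0.771 to 0.999.

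Single classes were tested where both controls and at least 2 mice of each model had 10 cells, which held for 12 classes. After the filter on low counts 54 pairs of member and class could be tested. Of these, 5 were called in each comparison with control, where 2.76% of all pairs of gene and class were called in HFD+F+CCl4 (1.41% higher and 1.36% lower) and 4.73% in WD+F+CCl4 (2.32% higher and 2.41% lower). Of the 5 in each, 4 were the same pairs: Mmp14 in classical monocyte-like, NK cell-like and plasmacytoid dendritic cell-like cells and Timp2 in T cell-like cells. The fifth was Mmp14 in mature dendritic cell-like cells in HFD+F+CCl4 and a fall of Timp3 in B cell-like cells in WD+F+CCl4. At an unadjusted p under 0.05 there were 26 and 22 of the 54 pairs, and 15.6% and 18.6% of all pairs. The share of all pairs in which models and controls did not overlap was not computed, so such separations below are descriptions.

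All 10 members are accounted for in the class fits. Plasma cell-like and type 1 dendritic cell-like cells had no member above the filter, mature dendritic cells 1 (Mmp14), NK cells 4, B cells, plasmacytoid dendritic cells and cholangiocytes 5 each, T cells and endothelial cells 6 each, neutrophils and type 2 dendritic cells 7 each and classical monocytes 8. WD+F+CCl4 replicate 1, with 9 endothelial and 2 cholangiocyte cells, was left out of those 2 fits, and HFD+F+CCl4 replicate 3 and WD+F+CCl4 replicate 2 out of the plasma cell fit. Macrophage-like (13 and 4 control cells), Kupffer-like (7 and 0), patrolling monocyte-like (30 and 8), stellate-like (17 and 1), hepatocyte-like (21 and 6) and erythroid-like (6 and 6) cells could not be tested against control.

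Mmp14 in classical monocyte-like cells, which circulate and enter inflamed tissue, was 9.37 and 13.2 CPM in the controls, 124, 78.4 and 131 CPM in HFD+F+CCl4 and 46.8, 88.5 and 65.6 CPM in WD+F+CCl4. Model and control mice were far apart, with log2 fold changes of 3.47 ± 0.45 and 2.76 ± 0.45 (adjusted p = 0.00301 and 0.00409), lost without control replicate 1 (3.32, adjusted p = 0.121, and 2.60, adjusted p = 0.181). Different clusters held this class in the groups: 89.2% of the control cells were in a cluster led by F13a1 and Fn1, and most model cells in other clusters. In mature dendritic cell-like cells the levels were 6.93 and 0 CPM in the controls, 130, 46.0 and 180 CPM in HFD+F+CCl4 and 49.0, 60.8 and 80.4 CPM in WD+F+CCl4. These rested on 19 and 11 control cells. The HFD+F+CCl4 rise (4.19 ± 1.09, adjusted p = 0.0452) was lost without HFD+F+CCl4 replicate 1 (0.0566) or 3 (0.0983) or control replicate 1 (0.451) or 2 (0.139), and WD+F+CCl4 did not pass (3.26 ± 1.22, adjusted p = 0.155).

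In NK cell-like cells Mmp14 was 6.97 and 13.02 CPM in the controls, 35.3, 43.4 and 48.1 CPM in HFD+F+CCl4 and 20.7, 85.8 and 23.2 CPM in WD+F+CCl4 (2.44 ± 0.68 and 2.55 ± 0.66, adjusted p = 0.0437 and 0.0240). The first was lost without HFD+F+CCl4 replicate 2 (0.0927) or 3 (0.104) or control replicate 1 (0.519) or 2 (0.0570), and the second without WD+F+CCl4 replicate 2 (1.53, 0.115) or control replicate 1 (1.99, 0.413), and they held in 5 and 10 of 11 other choices. In plasmacytoid dendritic cell-like cells, the interferon-producing dendritic cells, it was 6.94 and 9.46 CPM in the controls, 44.2, 29.0 and 43.1 CPM in HFD+F+CCl4 and 24.0, 53.6 and 24.3 CPM in WD+F+CCl4 (2.23 ± 0.51 and 2.18 ± 0.47, adjusted p = 0.0231 and 0.00932). The first was lost without HFD+F+CCl4 replicate 1 (0.0573) or 3 (0.159) or control replicate 1 (0.297) or 2 (0.0559), and the second without control replicate 1 (0.243). With the highest doublet scores left out, neither plasmacytoid call held (estimates of 1.59 and 1.36, adjusted p = 0.412 and 0.335).

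RNA of macrophages was higher in these model cells too. The C1q genes C1qa, C1qb and C1qc, macrophage markers, summed to 32.5 and 6.51 CPM in the control NK cells and 385 to 1720 CPM in the model NK cells, to 3.24 and 14.2 against 299.8 to 795 CPM in plasmacytoid dendritic cells, to 6.93 and 0 against 17.8 to 961 CPM in mature dendritic cells and to 73.6 and 70.5 against 608 to 1404 CPM in classical monocytes. Per 100 C1q UMIs the model mice had 1.41 to 2.98 Mmp14 UMIs in macrophages, 2.05 to 12.5 in NK cells, 3.06 to 17.1 in plasmacytoid dendritic cells, 3.33 to 21.6 in classical monocytes and 13.5 to 275 in mature dendritic cells. In B cells the ratio was 0 to 3.51. The part of free RNA in these rises was not tested.

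Classes that the controls hardly held are given as levels. Mmp14 was 212, 145 and 322 CPM in the macrophage-like cells of HFD+F+CCl4 and 88.7, 184 and 143 CPM in those of WD+F+CCl4, against 178 CPM in the 13 macrophage-like cells of control replicate 1 (6 UMIs). A UMI was found in 55.1%, 47.1% and 68.6% and in 33.1%, 48.3% and 50.04% of the cells. In B cell-like cells, which should lack it, 0% to 7.5% of the cells had a UMI, at a median depth of 1564 to 2024 UMIs, against 5254 to 6995 in macrophages. HFD+F+CCl4 replicate 3 was the highest mouse and WD+F+CCl4 replicate 1 the lowest. Patrolling monocyte-like cells had 257, 196 and 280 CPM in HFD+F+CCl4 and 165, 298 and 195 CPM in WD+F+CCl4. Control replicate 1, with 30 such cells and 73108 UMIs in them, lay far below all 6 of these mice. Kupffer-like cells had 230, 152 and 344 CPM in HFD+F+CCl4 and 172 and 172 CPM in WD+F+CCl4 replicates 2 and 3. An unnamed cluster led by Il1rn, Cxcl9 and Cxcl10, the last 2 interferon-induced chemokines, had 696, 329 and 481 CPM and 224, 356 and 370 CPM, above the macrophage-like cells of the same mouse in 6 of 6 mice, and 94.9 and 102 CPM in the controls (41 and 12 cells). Endothelial-like cells had 98.9 and 102 CPM in the controls, 240, 203 and 162 CPM in HFD+F+CCl4 and 174 and 274 CPM in WD+F+CCl4. They did not overlap but did not pass the test (1.06 and 1.25, adjusted p = 0.195 and 0.154). Neutrophil-like cells were likewise apart, at 2.91 and 0 CPM against 36.7 to 118 CPM, and just missed it (adjusted p = 0.0543 and 0.0778). The 0 CPM came from only 12 cells with 18601 UMIs in control replicate 2.

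**Figure D3:**
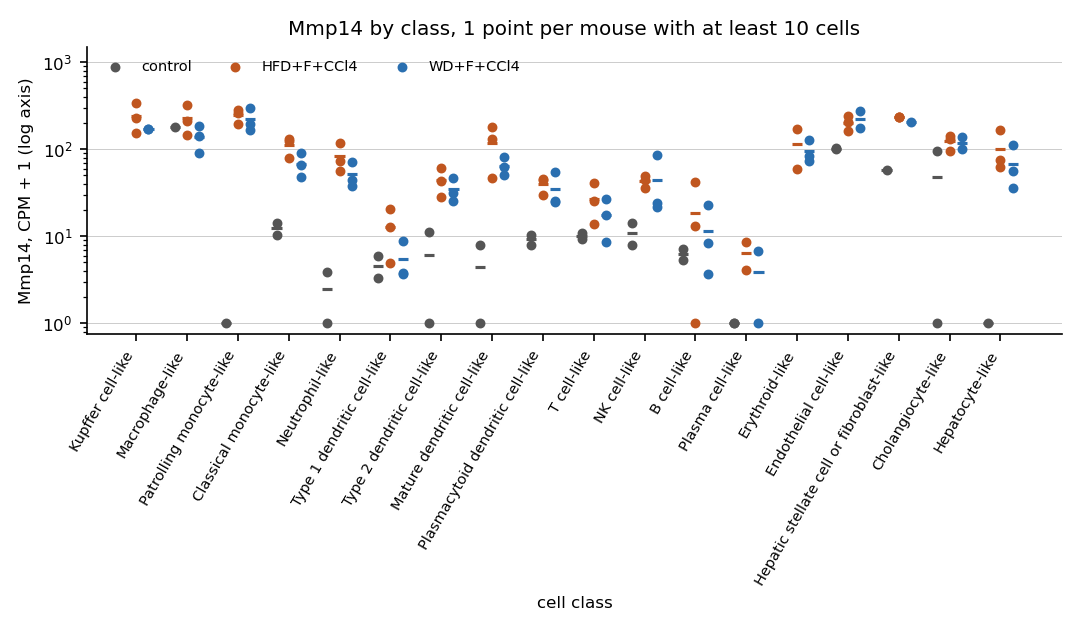
Mmp14 CPM + 1 (log axis) by cell class, with 1 point per mouse with at least 10 cells of the class, coloured by group, and a bar at the group mean. Model mice lie above the controls in the classical monocyte, mature and plasmacytoid dendritic, NK, neutrophil and endothelial classes, and the macrophage, Kupffer and patrolling monocyte classes, with at most 1 control mouse shown, have high model values.

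Mmp12 in Kupffer-like cells was 632, 925 and 5840 CPM in HFD+F+CCl4 (400, 191 and 33 cells) and 1193 and 1507 CPM in WD+F+CCl4 replicates 2 and 3 (27 and 664 cells). WD+F+CCl4 replicate 1 and control replicate 1 had 7 such cells each, with no Mmp12 UMI, and control replicate 2 had none. In the order of those 5 mice 32.2%, 40.3%, 36.4%, 37.0% and 37.6% of the cells had a UMI, and the 10% of the cells with the most Mmp12 UMIs held 89.0%, 75.9%, 93.6%, 80.1% and 89.4% of them. In B cells, which should lack it, 0% to 5% of the cells had a UMI, at a median depth of 1564 to 2024 UMIs, against 4899 to 8669 in Kupffer-like cells. The high value of HFD+F+CCl4 replicate 3 rested on 1 cell with 1241 of the 1800 UMIs, and it was 2173 CPM without that cell. In WD+F+CCl4 replicate 2 the level was 822 CPM without its top cell.

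**Figure D4:**
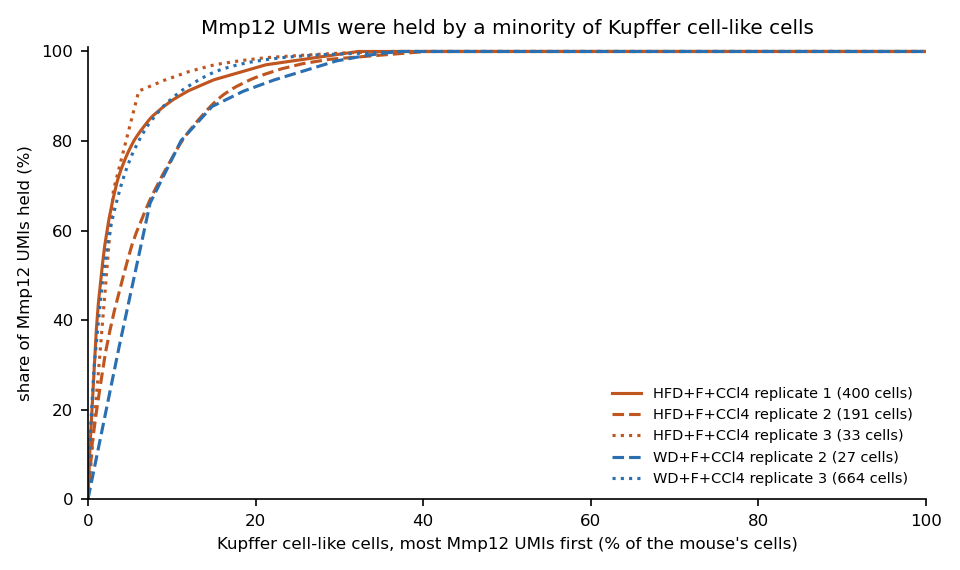
Cumulative share of Mmp12 UMIs (percent) against the share of Kupffer-like cells ranked from the most to the fewest Mmp12 UMIs (percent), 1 line per model mouse with at least 10 such cells (400, 191, 33, 27 and 664 cells). In all 5 mice the first 10% of the cells holds 75.9% or more of the UMIs.

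In the other macrophage-like cells Mmp12 was 126, 146 and 224 CPM in HFD+F+CCl4 and 36.1, 85.3 and 265 CPM in WD+F+CCl4, and 59.4 CPM in the 13 such cells of control replicate 1 (2 UMIs). In the models 5.50% to 16.6% of the cells had a UMI, against 0% to 5% in B cells, which were shallower. The top 10% of the cells held 94.9% to 100% of the UMIs. Where fewer than 10% of the cells had a UMI, this share was bound to be 100%. Kupffer-like cells held 41.2% and macrophage-like cells 39.7% of the Mmp12 UMIs of the models, or 26.6% and 43.0% without WD+F+CCl4 replicate 3. The Il1rn, Cxcl9 and Cxcl10 cluster had 158, 70.2 and 334 CPM in HFD+F+CCl4 and 60.7, 55.7 and 22.9 CPM in WD+F+CCl4. Mmp13 followed the same classes at lower counts. It was 10.7, 56.8 and 503 CPM in the Kupffer-like cells of HFD+F+CCl4 and 25.3 and 41.6 CPM in those of WD+F+CCl4 replicates 2 and 3. The 503 CPM came from the same cell that led Mmp12 in that mouse, with 150 of 155 Mmp13 UMIs, and was 19.4 CPM without it. Macrophage-like cells had 3.16, 7.44 and 13.9 CPM and 16.1, 12.4 and 9.76 CPM, all below the 59.4 CPM (2 UMIs) of the 13 cells of control replicate 1. They held 45.4% of the Mmp13 UMIs of the models, against 31.9% in Kupffer-like cells, or 50.1% and 24.9% without that cell.

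The granule enzymes Mmp8 and Mmp9 gave no call against control within neutrophil-like cells. Mmp9 was 1843 and 1505 CPM in the controls, 923, 987 and 546 CPM in HFD+F+CCl4 and 1063, 898 and 837 CPM in WD+F+CCl4. Both controls lay above all models, but the estimates of -0.89 and -0.61 did not pass (adjusted p = 0.309 and 0.465), and control replicate 2 had only 12 such cells. Mmp8 was 381 and 699 CPM in the controls, 315, 221 and 203 CPM in HFD+F+CCl4 and 405, 985 and 355 CPM in WD+F+CCl4 (adjusted p = 0.465 and 0.556). Neutrophil-like cells numbered 216 and 12 in the controls and 554 to 2284 in the models, where WD+F+CCl4 replicate 1, the mouse with the highest Mmp8 and Mmp9 over all cells, had the 2284.

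Within neutrophils, a small cluster led by Camp, Ngp and Ltf, granule genes of immature neutrophils, had higher Mmp8. It had 221 cells (0 to 73 per mouse). In the model mice with at least 10 of them Mmp8 was 645 to 3028 CPM, against 102 to 560 CPM in the main neutrophil cluster. Mmp9 was 660 to 1756 CPM, against 525 to 1052 CPM. HFD+F+CCl4 replicate 1 had only 3 such cells (4933 and 4513 CPM). Classical monocyte-like cells were the second source of Mmp8, with 30.8% of its UMIs in the models, and had 69.6 and 83.8 CPM in the controls and 53.6 to 133 CPM in the models (adjusted p = 0.912 and 0.822). Mmp9 in the controls came in large part from T cell-like cells (44.1% of UMIs, neutrophils 23.9%). It was 74.5 and 99.1 CPM in control T cells, 56.5, 43.1 and 30.2 CPM in HFD+F+CCl4 and 38.7, 42.6 and 14.2 CPM in WD+F+CCl4, and did not pass (-1.01 and -1.26, adjusted p = 0.162 and 0.0784). Per 100 UMIs of neutrophil markers there were 10.5 to 63.5 Mmp9 UMIs in T cells and 0.562 to 1.61 in neutrophils. The part of neutrophil RNA in the T cell values was not tested. The clusters that made up the T cell-like class differed between the controls (given below).

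Among the inhibitors, Timp2 rose in T cell-like cells, from 22.3 and 17.1 CPM in the controls to 68.2, 44.1 and 55.5 CPM in HFD+F+CCl4 and 40.9, 43.0 and 32.0 CPM in WD+F+CCl4. No model mouse overlapped a control (1.43 ± 0.25 and 1.05 ± 0.25, adjusted p = 0.0134 and 0.0393). The first call was lost without control replicate 1 (0.0562) or 2 (0.0682), and the second without control replicate 1 (0.0839) or 2 (0.163), WD+F+CCl4 replicate 1 (0.103) or 2 (0.115) or HFD+F+CCl4 replicate 2 (0.0508) or 3 (0.0508), and they held in 11 and 5 of 12 other choices. The class was held by different clusters. Of the control cells, 70.5% were in a cluster that the models hardly had. It held 2848 of the 3303 cells of control replicate 1 but 78 of the 846 of control replicate 2. In control replicate 2, 595 cells were in a cluster led by Xcr1, which scored 1.39 for T cell and 1.31 for type 1 dendritic cell markers. A cluster led by Ccl5 and Cd8a (2672 cells) was left unnamed and out of the class. Of the model cells, 58.6% (HFD+F+CCl4) and 73.4% (WD+F+CCl4) were in a cluster led by Il7r. Within the Il7r-led cluster Timp2 was 31.2 and 0 CPM in the controls and 32.5 to 60.1 CPM in the models. A cluster led by Foxp3, the transcription factor of regulatory T cells, had 28.3 CPM in control replicate 1, 173, 91.2 and 92.9 CPM in HFD+F+CCl4 and 149, 102 and 79.3 CPM in WD+F+CCl4.

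Timp3 fell in the B cell-like cells of WD+F+CCl4. It was 20.8 and 30.8 CPM in the controls, 20.5, 2.68 and 0 CPM in HFD+F+CCl4 and 0, 0 and 4.60 CPM in WD+F+CCl4. The WD+F+CCl4 mice were all below the controls (-4.14 ± 0.97, adjusted p = 0.0201), and HFD+F+CCl4 did not pass (-1.51 ± 0.94, adjusted p = 0.551). The call was lost without WD+F+CCl4 replicate 1 (-3.09, 0.0804) or 2 (-3.78, 0.0780) and without control replicate 1 (-4.32, 0.114), and with DESeq2 (0.441). The summed endothelial markers in the same B cells were 501 and 798 CPM in the controls, 404, 166 and 244 CPM in HFD+F+CCl4 and 154, 121 and 360 CPM in WD+F+CCl4, so endothelial RNA was higher in the control B cells too. Per 100 endothelial-marker UMIs there were 4.14 and 3.86 Timp3 UMIs in control B cells and 4.18 to 10.5 in endothelial-like cells. Its part in the fall was not tested, and 96.1% of the control B cells were in a cluster other than the one that held 93.4% and 99.3% of the model B cells.

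In its leading class Timp3 showed no such difference: endothelial-like cells had 989 and 465 CPM in the controls, 991, 613 and 650 CPM in HFD+F+CCl4 and 354 and 557 CPM in WD+F+CCl4 (0.05 and -0.65, adjusted p = 0.999 and 0.676). Timp1 was at 0 in the endothelial-like cells of both controls. It was at 5.85, 19.7 and 29.8 CPM in HFD+F+CCl4 and 12.4 and 9.52 CPM in WD+F+CCl4. The means were 5.95 and 3.54 times the limit of 3 UMIs over the controls, without a call (adjusted p = 0.174 and 0.262). The 5.85 CPM came from 1482 cells and the 29.8 CPM from 36. In the Vwf-led cluster of this class Timp1 was 17.7, 31.9 and 37.0 CPM in HFD+F+CCl4 and 14.5 and 50.5 CPM in WD+F+CCl4 replicates 2 and 3. In the main cluster it was 4.48, 8.46 and 0 CPM, and 0 and 7.86 CPM. The Vwf-led cluster held 25 of the 36 cells of HFD+F+CCl4 replicate 3, but the main one 94.7% of the control cells. The 30 Vwf-led cells of control replicate 1 were at 0, and the part of this mix was not tested. Stellate-like cells were few, with 17 and 1 in the controls, 161, 39 and 11 in HFD+F+CCl4 and 3, 4 and 16 in WD+F+CCl4. Their Timp1 was 0 in control replicate 1, 218, 623 and 4291 CPM in HFD+F+CCl4 and 87.0 CPM in WD+F+CCl4 replicate 3. The 4291 CPM came from 1 cell with 469 of 479 UMIs and was 132 CPM without it. Timp2 in the same cells was 345 CPM in control replicate 1, 1012, 900.2 and 654 CPM in HFD+F+CCl4 and 587 CPM in WD+F+CCl4 replicate 3, and Mmp2 was 216 CPM, 447, 195 and 116 CPM, and 163 CPM.

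**Figure D5:**
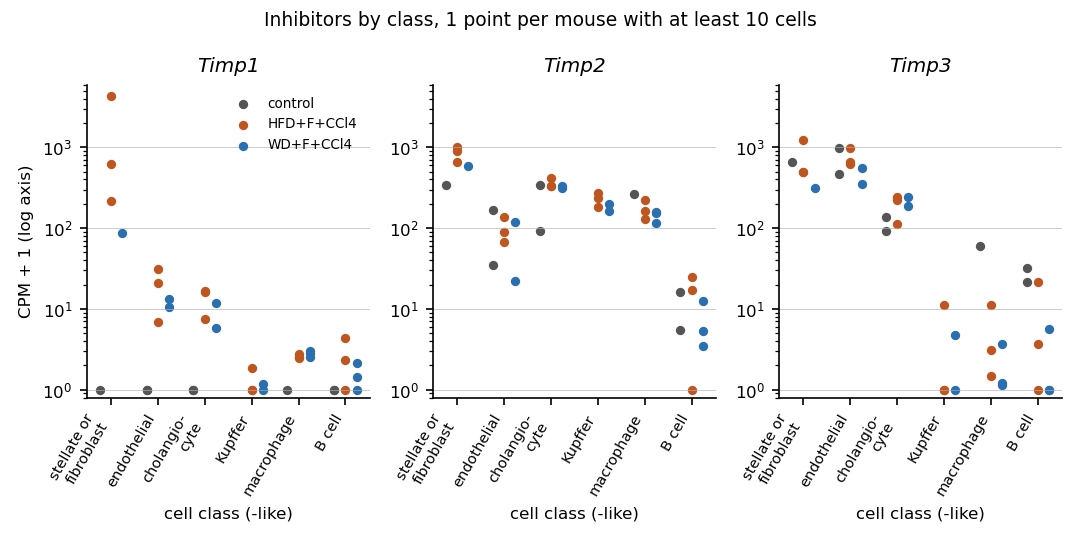
CPM + 1 (log axis) of Timp1, Timp2 and Timp3 in 6 cell classes, with 1 point per mouse with at least 10 cells of the class, coloured by group. Timp1 is highest in stellate cells of the models and at 0 in the single control mouse shown there, Timp2 is present in every class, and Timp3 is highest in endothelial and stellate cells.

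Between the models, no pair of member and class was called by edgeR or DESeq2 (0.0101% of all pairs of gene and class, 11 of 108461), and 7 of the 54 pairs had an unadjusted p under 0.05 by edgeR, as had 4.75% of all pairs. Over the 54 pairs the median log2 value was 0.53 in HFD+F+CCl4 and 0.64 in WD+F+CCl4 against control and -0.26 between the models, where all pairs gave 0.043, 0.046 and 0.0044.

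Other genes of extracellular proteolysis were described from a list of 47 genes in 5 roles. In MMD-like cells 34 of them could be tested, and 8 were higher and 2 lower in HFD+F+CCl4 and 10 higher and 4 lower in WD+F+CCl4, with median log2 fold changes of 0.88 and 0.35. Over all genes tested in these cells 8.54% were higher and 7.8% lower in HFD+F+CCl4 and 11% higher and 10.1% lower in WD+F+CCl4, with medians of 0.084 and 0.070. None of 7 other MMPs was higher (Mmp25 was lower in WD+F+CCl4), and none of 3 other inhibitors was called. Of 10 ADAM and ADAMTS proteases, the membrane-anchored Adam9, Adam10, Adam15 and Adam17 were higher in both models and Adam19 lower. Of 6 genes of the plasminogen system Plau was higher and Plg lower, and of 8 activators and partners Bsg, Itgav and Lrp1 were higher in both models, Lcn2 and Thbs1 in WD+F+CCl4, and Pcsk6 lower.

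Lrp1, the endocytic receptor that clears MMPs and their inhibitors, was 174 and 166 CPM in the control MMD-like cells, 728, 677 and 446 CPM in HFD+F+CCl4 and 723, 747 and 697 CPM in WD+F+CCl4 (2.00 ± 0.22 and 2.29 ± 0.22, adjusted p = 0.00131 and 0.000781). Itgav, a subunit of integrins that activate latent TGF-beta, was 36.6 and 34.5 CPM, 151, 144 and 98.2 CPM, and 123, 114 and 129 CPM (2.01 ± 0.20 and 1.95 ± 0.20, adjusted p = 0.000828 and 0.000947). Both genes separated all models from the controls. Plau, the urokinase that turns plasminogen into plasmin, was 1.34 and 4.18 CPM, 15.4, 25.6 and 7.83 CPM, and 24.0, 23.1 and 28.2 CPM (3.21 ± 0.66 and 3.89 ± 0.66, adjusted p = 0.0132 and 0.00465). Lcn2, which binds MMP9, reached 173 CPM in WD+F+CCl4 replicate 1 and 25.1 and 16.6 CPM in the other two, against 1.85 and 8.37 CPM in the controls (4.67 ± 1.40, adjusted p = 0.0453). Thbs1, a matrix protein, was 70.7, 18.9 and 13.04 CPM there against 2.69 and 1.05 CPM (4.01 ± 1.06, adjusted p = 0.0285). In HFD+F+CCl4 neither passed (adjusted p = 0.427 and 0.110).

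Adam19 fell from 69.9 and 75.3 CPM to 12.8, 19.0 and 21.4 CPM in HFD+F+CCl4 and 13.8, 9.74 and 13.1 CPM in WD+F+CCl4 (-1.86 and -2.37, adjusted p = 0.00335 and 0.00125). Plg, plasminogen, which hepatocytes secrete, was 34.6 and 30.3 CPM in the controls, 9.86, 5.14 and 1.33 CPM in HFD+F+CCl4 and 0.712, 0.263 and 1.04 CPM in WD+F+CCl4 (-2.49 and -5.39, adjusted p = 0.0410 and 0.00252). The summed liver-secreted genes in classical monocyte-like cells were 3876 and 2363 CPM in the controls, 2855, 1861 and 2273 CPM in HFD+F+CCl4 and 1148, 1406 and 2184 CPM in WD+F+CCl4, and their part in the fall of Plg was not tested. Over all kept cells, 41 of the 47 genes could be tested, and 13 were higher and 3 lower in HFD+F+CCl4 (median 1.51) and 12 higher and 4 lower in WD+F+CCl4 (median 0.85), with Mmp27 the only other MMP called. The shares over all genes there were 9.63% higher and 9.22% lower, and 11% higher and 10.3% lower, with medians of -0.0095 and -0.056. No gene of the list was called between the models by edgeR in either set of cells.

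As a description of likeness, genes were ranked by the Pearson correlation of their level across the 18 classes with that of each member, classes that share libraries and depth, so no test is given. Mmp12 was most like Folr2 (r = 0.9607), a Kupffer cell marker that helped name the class, and Kcnj10 and Fabp7 (0.9475 and 0.9471). Mmp13 was most like Fabp7 (0.9571), Folr2 (0.9537) and Mmp12 itself (0.9448). Fabp7 and Folr2 were thus among the nearest genes of both. The cell with the most UMIs was the same Kupffer-like cell of HFD+F+CCl4 replicate 3 for Mmp12 and Mmp13. It entered both Kupffer-like means, and likeness without it was not computed. Mmp9 was most like Retnlg, S100a9 and Cxcr2 (0.9125, 0.8846 and 0.8725), all 3 of them neutrophil markers used in naming, and Mmp8 like Cmpk2, Cd177 and Abtb1 (0.8949, 0.8718 and 0.8503).

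Mmp14 was most like Fmn1, Dnajb12 and Rin2 (0.9487, 0.9457 and 0.9322), and Mmp19 like Adap2os, Adap2 and Tgm1 (0.8677, 0.8599 and 0.8325). The stellate-led genes Mmp2 and Timp1 had no nearest gene in common: Gdpd2, Cox4i2 and Igsf10 for Mmp2 (0.9698, 0.9535 and 0.9444) and Tril, Rgs17 and Tnc for Timp1 (0.9663, 0.9609 and 0.9492). Timp2 was most like Selenon, Sept8 and Fblim1 (0.926, 0.8898 and 0.8805). Timp3 was most like Adamts1, a secreted protease of the matrix, Rbms3 and Mtmr11 (0.9593, 0.9554 and 0.955).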

How the data were processed

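Single-cell libraries of 8 mouse livers (10x Chromium 3′ v3) were analysed from the UMI counts per gene and barcode that the authors deposited. Per the labels and the submitters' processing notes, reads were demultiplexed with bcl2fastq 2.20 and counted with Cell Ranger against mouse build GRCm38. The deposited counts are not normalized, and 0 columns of sample values were left out.

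Here, barcodes with more than 500 genes and under 25% mt- UMIs were kept. Cells were clustered with Python 3.11.15, scanpy 1.11.5 and leidenalg 0.10.2 (2000 variable genes, 30 components, 20 neighbours, resolution 1, 41 clusters, dendritic cells clustered again), leaving the members and the list of 47 genes out of the variable genes. Clusters were named from fixed marker lists, with limits set after the data were seen, so classes can differ from the study's. Scrublet marked 6824 barcodes (0.8% per 1000 barcodes), which were left out only as an alternative. UMIs were summed per mouse and class, since cells are not replicates, and tested over all genes with edgeR 4.0.16 in R 4.3.3 (two-sided quasi-likelihood test of all 8 mice in 1 fit, TMM scaling, genes kept by filterByExpr at a minimum count of 10), called at a Benjamini-Hochberg adjusted p under 0.05. CPM are summed UMIs of a gene per 1000000 UMIs of the same cells. DESeq2 1.42.0 and the other alternatives are described below. Folds against groups at 0 used a floor of 3 counts over the group and, like the counts, cover counting error only. Likeness used log2(mean CPM + 1) over genes at 10 CPM or more in a class.

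Counts were simulated with a log2 change of 2 in 200 genes, set as HFD+F+CCl4 against control. The edgeR fit recovered 25.5% over all kept cells (19787 genes, 2 false calls) and 62% in MMD-like cells (17402 genes, 3 false calls). DESeq2 recovered 55.5% (66 false calls) and 69% (33 false calls). Many changes of this size would thus be missed in this design, and other numbers of control mice were not simulated. All 10 members are named in each comparison; of the list of 47 genes, those called in MMD-like cells with a mean log2 CPM over 3, up to 5 by rise and 5 by fall; for likeness, the first 3 genes of each member. The members and lists were chosen with earlier results of these data known.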

Additional observations from a re-analysis of the deposited data

How the results depend on the processing

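The counts of members called kept within 1.5 times of their value in 90 of 108 comparisons with another processing choice. They did so in 54 of 72 fits without 1 mouse. Both totals include the comparisons between the models, where the count was 0 and no call could be lost. A fit without a control leaves 1 control, which is then assumed to vary like the other groups. Over all kept cells, leaving out 1 mouse gave 3 to 6 called members in HFD+F+CCl4 (5 with all mice) and 1 to 6 in WD+F+CCl4 (6 with all mice). In MMD-like cells it gave 1 to 4 (of 4) and 1 to 6 (of 5), and in single classes 0 to 10 (of 5) and 0 to 8 (of 5). In MMD-like cells of HFD+F+CCl4 the count was 7 with DESeq2, 2 with RLE size factors, 2 with no scaling beyond library size and 7 with every gene of at least 1 count. In those of WD+F+CCl4 it was 3 with counts thinned to the smallest library and 3 with more than 1000 genes per barcode. In single classes of HFD+F+CCl4 it was 10 at Leiden resolution 0.5, 2 when thinned, 22 with every gene and 10 with only the 2 groups compared, and in those of WD+F+CCl4 11 at resolution 0.5, 1 when thinned, 2 without doublets and 19 with every gene. Between the models in single classes it was 7 with every gene and 0 otherwise. The causes were not tested.

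Replicate numbers did not pair the samples: same-numbered mice of both models deviated from their group means with correlations of -0.54, 0.067 and -0.65. When the replicate number entered the fit as a replicate block, the counts over all kept cells were 3 and 4, in MMD-like cells 1 and 1 and in single classes 4 and 6.

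Of the members' single values, which include members that were not called, 768 of 841 under other choices kept direction and call. Without 1 mouse 452 of 560 did. Those that turned were not called. Against control over all kept cells, Mmp9 in WD+F+CCl4 was -0.45 with more than 1000 genes per barcode, and between the models in MMD-like cells Mmp12 was 0.0071 without the cell with the most UMIs of each member, an alternative added after the data were seen. Leaving out 1 mouse gave -0.81 to 0.82 for Mmp9, -3.23 to 0.023 for Timp3 and -0.036 to 8.10 for Mmp2 in WD+F+CCl4 and -1.70 to 1.05 for Timp3 in HFD+F+CCl4; the signs turned without replicate 1 (Mmp9 and Timp3) or replicate 3 (Mmp2) of the model itself. Between the models it gave, over all kept cells, -0.088 to 1.48 for Mmp9, -3.79 to 1.21 for Timp3, -0.31 to 0.58 for Mmp13, -2.37 to 0.39 for Mmp12 and -0.50 to 0.14 for Timp2, and in MMD-like cells -0.48 to 0.61, -5.12 to 0.091, -0.32 to 0.65, -2.40 to 0.52 and -0.36 to 0.26 for the same genes.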
